A study of Homo sapiens with 3 samples.

Results

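The genes described here are 7 A-kinase anchoring proteins (AKAP1, AKAP8, AKAP8L, AKAP9, AKAP10, AKAP11 and AKAP13) and 3 subunits of protein kinase A (PRKACA, PRKAR1A and PRKAR2A). They were chosen by name, without AKAP12, and each transcript of theirs in the authors' deposited table was taken once its RefSeq identifier had been matched to a gene symbol. All 10 genes were found there, with 17 transcripts, among 12582 genes and 20104 transcripts in all. The cells were SW480, an established human colon adenocarcinoma line, and they received either control shRNA (short hairpin RNA, which silences a matching transcript) or an shRNA that targets RBMS1. Total RNA was collected 48 hours after this transduction. There were 2 shControl libraries and 1 shRBMS1 library. The knockdown rests on 1 hairpin, TRCN0000074936. The labels name the control hairpin alike in both libraries and do not identify it further. The comparison asks which of these transcripts differ in level when RBMS1, an RNA-binding protein that recognises AUAUA in RNA, is reduced.

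Protein kinase A (PKA) is held inactive as a complex of regulatory subunits bound to catalytic subunits. Cyclic AMP (cAMP) binds the regulatory subunits and frees the catalytic ones, which phosphorylate channels, enzymes and transcription factors of the CREB family. A-kinase anchoring proteins hold the regulatory subunits at a membrane, organelle or chromatin, often beside phosphatases and phosphodiesterases, and so set where the kinase acts. In the intestinal epithelium this pathway is known for driving chloride secretion.

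Every value is a log2 fold change per transcript, knockdown over control, as the authors deposited it, and several transcripts of one gene were joined here by taking their median as the gene value. With 1 knockdown library there is no replicate check, so no standard error, interval or p-value is given. Levels in single libraries were not analysed here. The depth behind each value is therefore unknown, and very low expression in one arm and a true large shift cannot be told apart. Fold changes were read in the direction that puts RBMS1, the gene under knockdown, lower in that arm, and in the authors' deposited table its transcripts were at −1.62 and −1.36, or 32.5% and 39.1% of control. This choice sets the sign of RBMS1, which is thus no check of the labels. Of 10 markers of colon epithelium 7 had a value, against 1 of 8 leukocyte markers (LYZ, a lysozyme also made in gut epithelium), 0 of 6 fibroblast markers and 0 of 5 endothelial markers. The 7 epithelial markers had a median gene value of −0.43, with 6 below 0, from −2.33 for the brush border gene VIL1 to 0.048 for the keratin KRT8. Of the 7, 2 were lower by at least 1, VIL1 and the keratin KRT18, beside 3.96% of all genes. Below 0 lay 6107 of all 12582 genes. The gene value of KRT18, −1.09, joins transcripts which the authors' deposited table puts at −2.17 and −0.015. The part of these markers in the results below was not tested.

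Like most genes in the table, most of the 10 genes differed little between the arms. Their values had a median of −0.0030, against 0.012 over all genes, with 5 below 0 and 5 above, and 7 of the 10 lay within 0.5 of 0, as did 76.9% of all genes. AKAP13 and PRKACA were lower by at least 1 on the log2 scale, which is 2 of 10 genes beside a background of 3.96% of all genes. None of the 10 was higher by at least 1, where the background is 3.95% of all genes. Counted by transcript, 2 of 17 were lower by at least 1 (7.86% of all transcripts were) and 2 of 17 were higher by at least 1 (8.27% of all transcripts were). The 2 lower genes differ in what they rest on. PRKACA has 1 measured transcript, and AKAP13 has 2 that stand 8.78 apart.

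**Figure D1:**
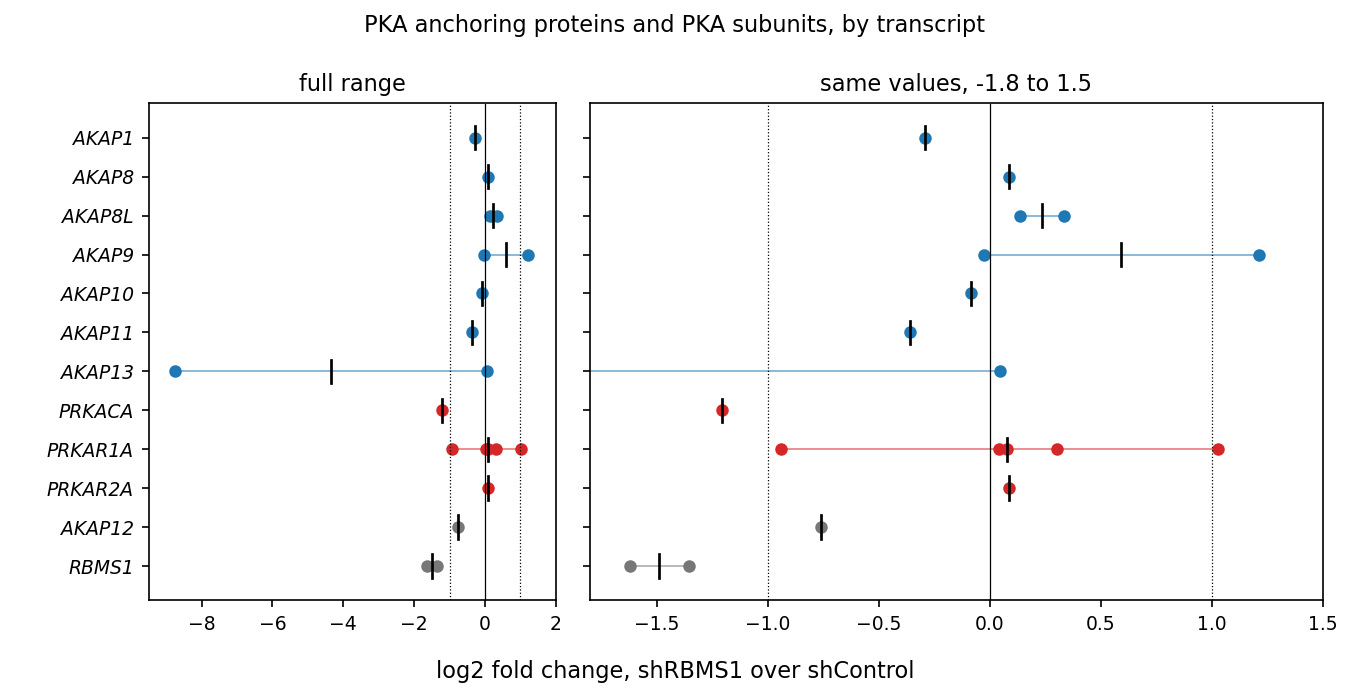
Log2 fold change of each measured transcript (points) and the gene's median (black bars) for the 7 anchoring proteins (blue), the 3 PKA subunits (red) and the references AKAP12 and RBMS1 (grey). The left panel shows the full range and the right panel the same values between −1.8 and 1.5; dotted lines mark −1 and 1. One AKAP13 transcript at −8.74 lies far from the other 16, and PRKACA at −1.21 lies below all other subunit transcripts.

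PRKACA encodes the catalytic alpha subunit, the kinase itself. The gene lies on chromosome 19 at 14091688 to 14117762 (hg38), on the minus strand. Its 1 measured transcript, NM_002730, was at −1.21 in the authors' deposited table, which is 43.4% of control. That placed PRKACA at percentile 2.85 of all genes, close to RBMS1 itself at percentile 1.96. With a single measured transcript, this value cannot depend on how transcripts were joined here. How reads were divided between transcripts before that is unknown. By gene values PRKACA was 1.28 below PRKAR1A and 1.29 below PRKAR2A on the log2 scale, or 2.43-fold and 2.45-fold lower relative to each. The figure for PRKAR1A depends on its transcript: the lowest of the 5 lay 0.26 above PRKACA and the highest 2.23 above. No error can be attached to these differences.

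The second catalytic gene, PRKACB, is not among the 10 and was singled out after its values were seen. Its 3 transcripts, per the authors' deposited table, stood at −0.60, 0.58 and 1.03, and its gene value was 0.58. The value of PRKACA lay 1.78 below it on the log2 scale. The transcripts of PRKACB went both ways, so a direction for that gene depends on which transcript is read.

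PRKAR1A encodes the type I alpha regulatory subunit, which binds and inhibits the catalytic subunit and is known as a tumour suppressor in endocrine tissue. Its annotated locus spans 68413623 to 68551316 on chromosome 17, on the plus strand. The gene value was 0.078, at percentile 57.7 of all genes, but its 5 transcripts covered both directions. In the authors' deposited table NM_001276289 was at 1.03 (204% of control) and NM_002734 at 0.30 (123% of control). Near 0 in the authors' deposited table, NM_001276290 was at 0.078 and NM_212472 at 0.043. The lowest, NM_212471, was at −0.94 in the authors' deposited table, or 52.0% of control. The highest and lowest thus stood 1.97 apart, a range wider than in 73.8% of the 4597 genes with several transcripts.

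The high and the low PRKAR1A transcripts have the same annotated coding sequence and differ in their first exons. Of the GENCODE transcripts linked to them, that of NM_212471 starts with an exon of 111 bases at 68512032 to 68512142. The one linked to NM_001276289 starts with an exon at 68512450 to 68512548 and has a further exon of 133 bases at 68514987 to 68515119. Both lie before the start codon, and 0 coding bases separate these 2 transcripts. NM_002734 and NM_212472 are linked to one and the same GENCODE transcript, whose first exon lies at 68512379 to 68512579, so what separates them cannot be read from these links. NM_001276290 differs at both ends. Its linked transcript starts at 68515400, without the exons that come before this in the others. Its last exon, at 68551084 to 68551319, carries 41 coding bases, stop codon included, not found in the others, and it lacks 173 coding bases of theirs. Transcripts of 1 gene share most of their sequence and hence their reads, so their values are not independent. A change in level and the way reads were divided between transcripts cannot be told apart here.

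PRKAR2A encodes the type II alpha regulatory subunit, the form that most anchoring proteins bind. It lies on chromosome 3 at 48744591 to 48847874, on the minus strand. Its 1 measured transcript, NM_004157, was at 0.088 in the authors' deposited table, or 106% of control, at percentile 58.9 of all genes. It was therefore among the genes that hardly differed between the arms.

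AKAP13 encodes a large anchoring protein that is also an exchange factor for the small GTPase RhoA. The gene spans 85380603 to 85749358 on chromosome 15, on the plus strand. In the authors' deposited table NM_006738 was at 0.045, or 103% of control, while NM_007200 was at −8.74, or 0.234% of control. The gene value of −4.35, at percentile 0.358 of all genes, lies between them and describes neither. Only 96 transcripts in the table, this one included, were at −8.74 or below. Such a spread was wider than in 95.9% of the 4597 genes with several transcripts. Read from NM_006738 alone, AKAP13 would be among the genes with no difference.

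The AKAP13 transcripts differ in coding sequence by 1 exon each, shown here because no other coding bases tell the linked GENCODE transcripts apart. Each is exon 12 of its transcript, printed 5′ to 3′ on the gene's strand from GENCODE 29 (hg38).
NM_006738, exon 12, 66 bases, chr15:85662388-85662453: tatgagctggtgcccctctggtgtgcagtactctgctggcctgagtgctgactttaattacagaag
NM_007200, exon 12, 54 bases, chr15:85658537-85658590: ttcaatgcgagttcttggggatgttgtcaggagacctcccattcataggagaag
The first of these 2 exons belongs to the transcript at 0.045 and the second to the transcript at −8.74. All other coding bases are common to both. Their last exons start together at 85744628, and the one linked to NM_007200 runs on to 85749355 where the other ends at 85745610. The ends of GENCODE transcripts may differ from those of the RefSeq transcripts that the authors measured.

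**Figure D2:**
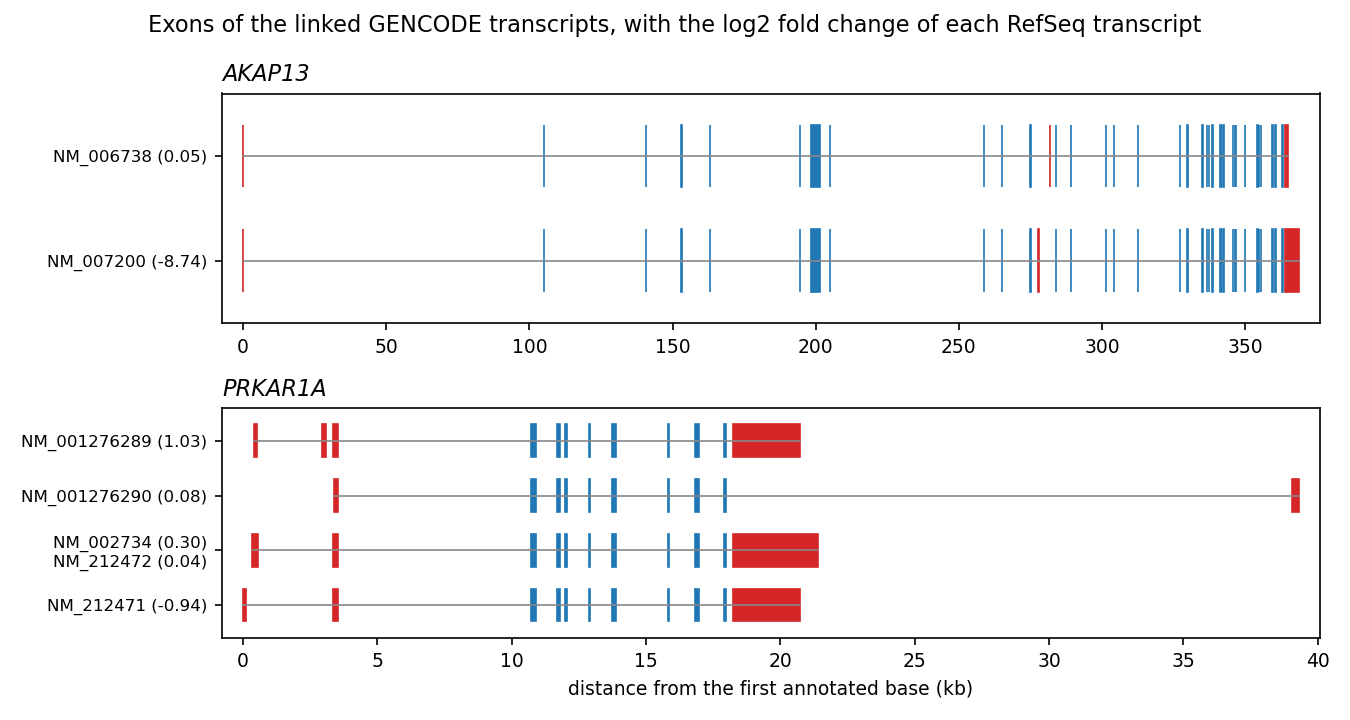
Exons of the GENCODE transcripts linked to the measured RefSeq transcripts of AKAP13 (top) and PRKAR1A (bottom), by distance in kb from the first annotated base, with each transcript's log2 fold change in brackets. Exons with the same ends in all linked transcripts of the gene are blue and the others red; thin exons are drawn with an outline that widens them. The AKAP13 transcripts at 0.045 and −8.74 differ inside by 1 red exon each, and the PRKAR1A transcripts at 1.03 and −0.94 differ before the shared exons.

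AKAP9 encodes a scaffold of the centrosome and Golgi, where microtubules are nucleated. It lies on chromosome 7 at 91940862 to 92110673, on the plus strand. In the authors' deposited table NM_005751 was at −0.026, or 98.2% of control, and NM_147185 at 1.21, or 231% of control. The gene value of 0.59, at percentile 91.9, was the highest of the 10, and it rests on NM_147185 alone. Both are linked to one GENCODE transcript, so the exons that separate them are not given here. A range of 1.24 between transcripts was wider than in 58.3% of the genes with several, near the middle.

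AKAP11 and AKAP1 lay slightly lower. AKAP11, a scaffold that also binds glycogen synthase kinase and protein phosphatase 1, lies on chromosome 13 at 42271477 to 42323261, on the plus strand. Its transcript NM_016248 was at −0.36 in the authors' deposited table, or 78.0% of control, at percentile 18.8 of all genes. AKAP1 anchors PKA at the outer mitochondrial membrane and lies on chromosome 17 at 57085246 to 57121344, on the plus strand. Its transcript NM_003488 was at −0.29 in the authors' deposited table, or 81.7% of control, at percentile 22.6. The quartiles of all genes were −0.25 and 0.23, so both stood just outside the middle of the table. AKAP12, a membrane scaffold of PKA left out of the 10 by the rule, was lower than either: its transcript NM_144497 was at −0.76 in the authors' deposited table. AKAP11 lay 0.40 and AKAP1 0.47 above AKAP12 on the log2 scale.

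The anchoring proteins of the nucleus and AKAP10 lay near no difference. AKAP8, a zinc finger protein of the nuclear matrix that also binds chromatin, lies on chromosome 19 at 15353385 to 15379787, and its transcript NM_005858 was at 0.084 in the authors' deposited table, or 106% of control. Its homologue AKAP8L lies next to it at 15380050 to 15418988, with 262 bases between them, both on the minus strand. In the authors' deposited table the AKAP8L transcript NM_014371 was at 0.14, or 110% of control, and NR_111971 at 0.33, or 126% of control. NR_111971 is a non-coding RefSeq entry whose linked GENCODE transcript is annotated as a target of nonsense-mediated decay, and it did not differ much from the coding one. AKAP8 and AKAP8L, as genes, stood 0.15 apart. AKAP10, which binds both types of regulatory subunit, lies on chromosome 17 at 19904302 to 19977828, on the minus strand. Its transcript NM_007202 was at −0.084 in the authors' deposited table, or 94.3% of control.

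**Figure D3:**
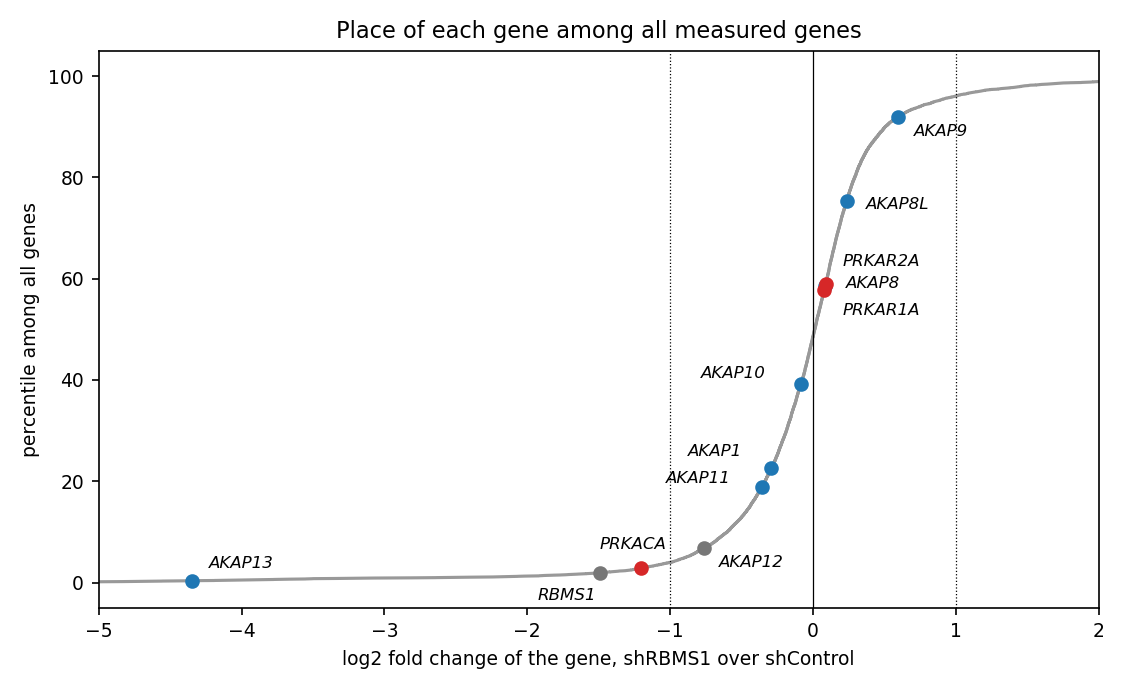
Percentile of each gene among all 12582 genes (vertical axis) against its log2 fold change (horizontal axis); the grey curve is all genes, anchoring proteins are blue, PKA subunits red and the references AKAP12 and RBMS1 grey. AKAP13 and PRKACA lie left of −1, and the other 8 genes lie between −0.36 and 0.59. The curve is cropped at −5 and 2.

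Set in order, the genes ran from AKAP13 and PRKACA at the low end through AKAP11, AKAP1, AKAP10, PRKAR1A, AKAP8, PRKAR2A and AKAP8L to AKAP9. Between neighbours from AKAP11 upward there is no replicate spread to tell them apart. When each gene was represented by the transcript closest to 0, AKAP13 moved to 0.045 and AKAP9 to −0.026, and PRKACA was then the 1 gene of the 10 that was lower by at least 1. The 6 genes with 1 measured transcript, PRKACA among them, cannot move in this way. No other measured gene overlapped the span of the measured transcripts of these 10 genes.

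RBMS1 is known to bind AUAUA in 3′ untranslated regions (3′ UTRs), so the same letters, ATATA in DNA, were counted on the sense strand of the longest annotated 3′ UTR of each gene, overlapping matches included. Of the 10 genes 7 held at least 1 match, beside 62.0% of 11284 genes with a 3′ UTR, and 6 held at least 2, beside 47.3% of them. The median 3′ UTR was 1727.5 bases long in the 10 genes and 1372.5 in all genes. The matches came to 2.37 per kb of 3′ UTR over the 10 genes and 1.77 per kb over all genes. Of the 56 matches in the 10 genes, AKAP10 gave 15 in 7 separate places and AKAP8 10 in 3, so overlapping matches weigh on this rate. PRKACA held 0 matches in 1424 bases, AKAP1 0 in 1025 and AKAP8L 0 in only 74. AKAP13 held 1 match in 4681 bases, and it lies in the part of the last exon that both linked transcripts share. The 2 genes that were lower by at least 1 by gene value held 1 match between them. Whether matches go with fold changes was not tested.

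The 3 genes with the most matches, AKAP10, PRKAR1A and AKAP8, had gene values between −0.084 and 0.084. That of PRKAR1A, 0.078, is the value of NM_001276290, whose linked transcript lacks the last exon that holds the matches of that gene. The transcripts linked to NM_001276289 and NM_212471 end at 68532762, before the matches from 68533131 on. AKAP10 held 15 in 7 separate places, PRKAR1A 13 in 9, AKAP8 10 in 3, AKAP11 9 in 9 and PRKAR2A 6 in 5, where runs of alternating A and T give several overlapping matches. AKAP9 held 2 in its longest annotated 3′ UTR and 3 in that of the transcript linked to the measured ones. For comparison, AKAP12 held 15 matches in its longest 3′ UTR of 2843 bases and 2 in the 1059 bases of the transcript linked to the measured one. A match says only that these letters are present, and binding was not measured in these libraries.

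The sequences below show 1 match for each gene that held any, the first after the stop codon, and for AKAP12 the same. For AKAP9 it is the first in the transcript linked to the measured ones, since its longest 3′ UTR belongs to another transcript. They are shown so that the surrounding letters can be compared. Each is 25 bases of the annotated 3′ UTR, 5′ to 3′ on the gene's strand, from GENCODE 29 (hg38), with the match in capitals; the position is that of the match.
AKAP8, chr19:15354518-15354522: aatactaggaATATAtcttgctcta
AKAP9, chr7:92110326-92110330: tggaatttgtATATAtaagcattgt
AKAP10, chr17:19905601-19905605: tgatggcagtATATAgttttcacat
AKAP11, chr13:42319351-42319355: aggcaagtaaATATAgctttctgag
AKAP13, chr15:85745118-85745122: acctgtctgcATATAcacacgggga
PRKAR1A, chr17:68530572-68530576: ctgtctgtttATATAttgaaagttg
PRKAR2A, chr3:48747990-48747994: gtgaaataggATATAgccattacca
AKAP12, chr6:151355960-151355964: cttgataaccATATAaattctgatt
The match of PRKAR1A lies 123 bases after its stop codon, as does the first of AKAP11, whereas that of PRKAR2A lies 3591 bases after. AKAP8, AKAP9, AKAP11, AKAP13 and PRKAR1A carry a match at 441 bases or less after the stop codon, a limit set by AKAP13 itself. Their gene values run from −4.35, which joins AKAP13 transcripts at 0.045 and −8.74, to 0.59. AKAP12 carries a match at 246 bases. Whether the place of a match goes with fold change was not tested.

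**Figure D4:**
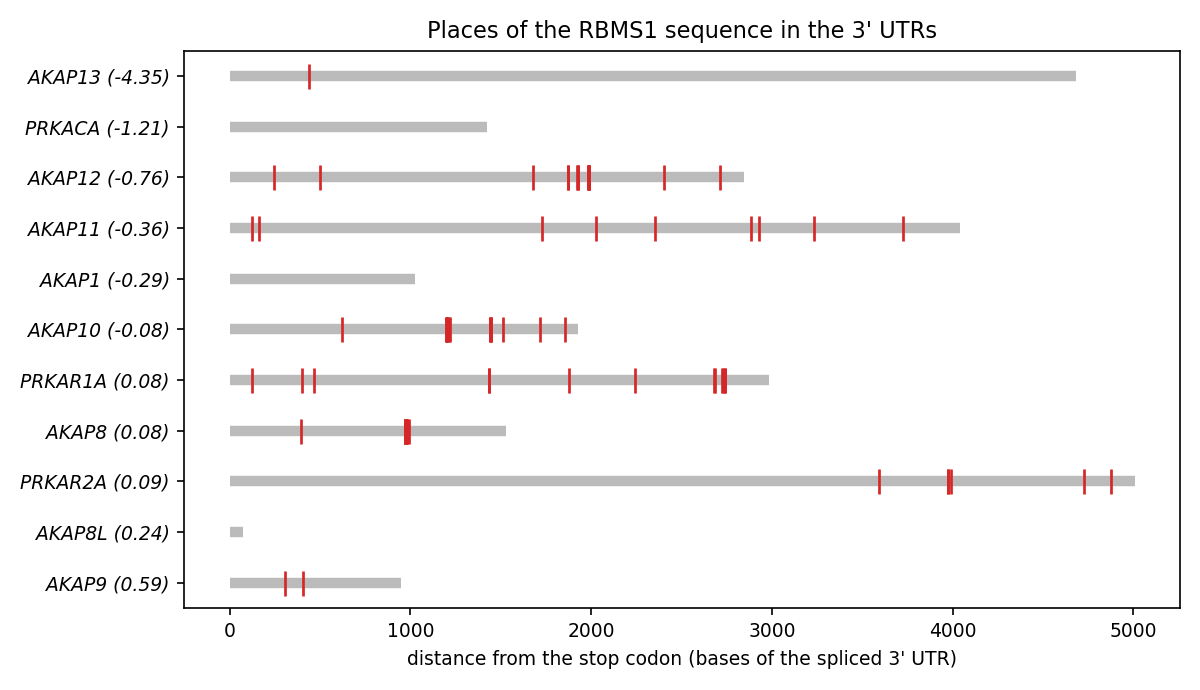
Matches to the sequence that RBMS1 recognises (red ticks) along the longest annotated 3′ UTR (grey bars) of each gene and of AKAP12, by distance in bases from the stop codon. Genes are sorted from the lowest to the highest log2 fold change, given in brackets. PRKACA, AKAP1 and AKAP8L have no tick, and AKAP10 has 15; the bar of AKAP9 belongs to a transcript other than the one linked to its measured values.

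The rest of the pathway was read from lists grouped by role. Of 93 names listed for other genes of the cAMP and PKA pathway, AKAP12 not counted, 58 had a value. Their median was −0.095, with 35 below 0 and 23 above, where all genes had a median of 0.012. At least 1 lower were 5 of the 58 (3.96% of all genes were) and at least 1 higher were 4 of the 58 (3.95% of all genes were).

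Apart from AKAP12, at −0.76 and not counted here, the other AKAP genes with a value all lay within 0.5 of 0. Of the 4 other subunits 2 did. Of 9 other AKAP names listed, AKAP2 and PALM2AKAP2 both among them, 4 had a value. They ran from −0.39 for PALM2AKAP2, which joins a paralemmin to an anchoring protein, to 0.46 for AKAP17A, computed from the authors' deposited table. AKAP17A, which also acts in splicing, has copies on both sex chromosomes, and no source used here says how reads were divided between the copies. Of 5 other PKA subunits 4 had a value, from −0.48 for the type II beta regulatory subunit PRKAR2B to a value at 203% of control for the type I beta subunit PRKAR1B, the 1 gene of these 2 lists higher by at least 1. Its 4 transcripts lay, per the authors' deposited table, between −0.085 and 2.59. By gene values PRKAR1B thus lay 0.95 above PRKAR1A on the log2 scale. PRKACB, described above, was the other subunit outside 0.5, at 0.58. The inhibitor PKIG, which blocks the free catalytic subunit, had a gene value of −0.62, with transcripts from −2.55 to 0.25 in the authors' deposited table.

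Among 10 measured proteins that bind PKA or its complexes without the AKAP name, the lowest was GSKIP, which also binds glycogen synthase kinase, at −1.87, and the highest the GTPase RAB32 at 0.29. GSKIP has 3 transcripts, which the authors' deposited table puts between −2.92 and 1.12. GSKIP was the 1 gene of this group past 1, where 3.96% of all genes were lower and 3.95% higher by as much. Within 0.5 of 0 lay 7 of the 10, a share close to the 76.9% of all genes.

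Of the adenylyl cyclases, which make cAMP, and the stimulatory G protein subunits that switch them on, 6 genes had a value and 5 lay within 0.5 of 0, beside 76.9% of all genes. The other was the adenylyl cyclase ADCY7, whose 1 transcript was at −4.06 in the authors' deposited table, or 5.99% of control. The highest was GNAL, a stimulatory G protein subunit, at 0.39. Of the 8 measured phosphodiesterases, which break cAMP down, 2 were at −1 or below and 2 at 1 or above, beside 3.96% and 3.95% of all genes. PDE4A and PDE10A stood at 45.9% and 47.4% of control by their gene values from the authors' deposited table, and PDE4B and PDE2A at 445% and 282%. On the log2 scale both measured transcripts of PDE4B were higher, with 1.59 and 2.71 in the authors' deposited table. Both transcripts of PDE4A were lower, with −1.38 and −0.86 in the authors' deposited table. The phosphodiesterase genes therefore went in opposite directions, and their median was 0.16.

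Downstream of the kinase, 8 genes of the CREB family and its coactivators had a median of −0.16. The histone acetyltransferase EP300, a CREB coactivator, was lowest at −0.74, and the coactivator CRTC3 highest at 3.23. CRTC3 has 2 transcripts far apart, which the authors' deposited table puts at −1.91 and 8.37. Of 12 listed CREB target genes 5 had a value, and all 5 gene values lay below 0, with a median of −0.38. They ran from −0.53 for the clock gene PER1 to −0.045 for the phosphatase gene DUSP1. NR4A1, among the 5, has 3 transcripts that went both ways, at −1.86, −0.38 and 0.55 in the authors' deposited table. Several of the 5 are also immediate-early genes that respond to growth factors without PKA. The part of PKA or of growth factors in these values was not tested. Over the whole table, 6107 of the 12582 genes lay below 0. By gene value none of the 5 was lower by at least 1.

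Of the other cAMP effectors, 3 of 5 had a value. Their gene values ran from −0.83 for POPDC3, a cAMP-binding membrane protein, to 0.35 for RAPGEF3, an exchange factor that cAMP activates without PKA. In the authors' deposited table POPDC3 joins −1.52 and, for a non-coding entry, −0.14. The transcripts of RAPGEF3 went both ways there, at −1.91, 0.35 and 0.58. The 9 phosphatase genes whose products are held on AKAP scaffolds or related complexes had a median of −0.053, and 7 lay within 0.5 of 0, a share like the 76.9% of all genes. PPP3CA, a catalytic subunit of calcineurin, was lowest at −5.02, with transcripts that the authors' deposited table puts at −9.79 and −0.26. The highest was PPP2CB, a catalytic subunit of protein phosphatase 2A, at 0.14.

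**Figure D5:**
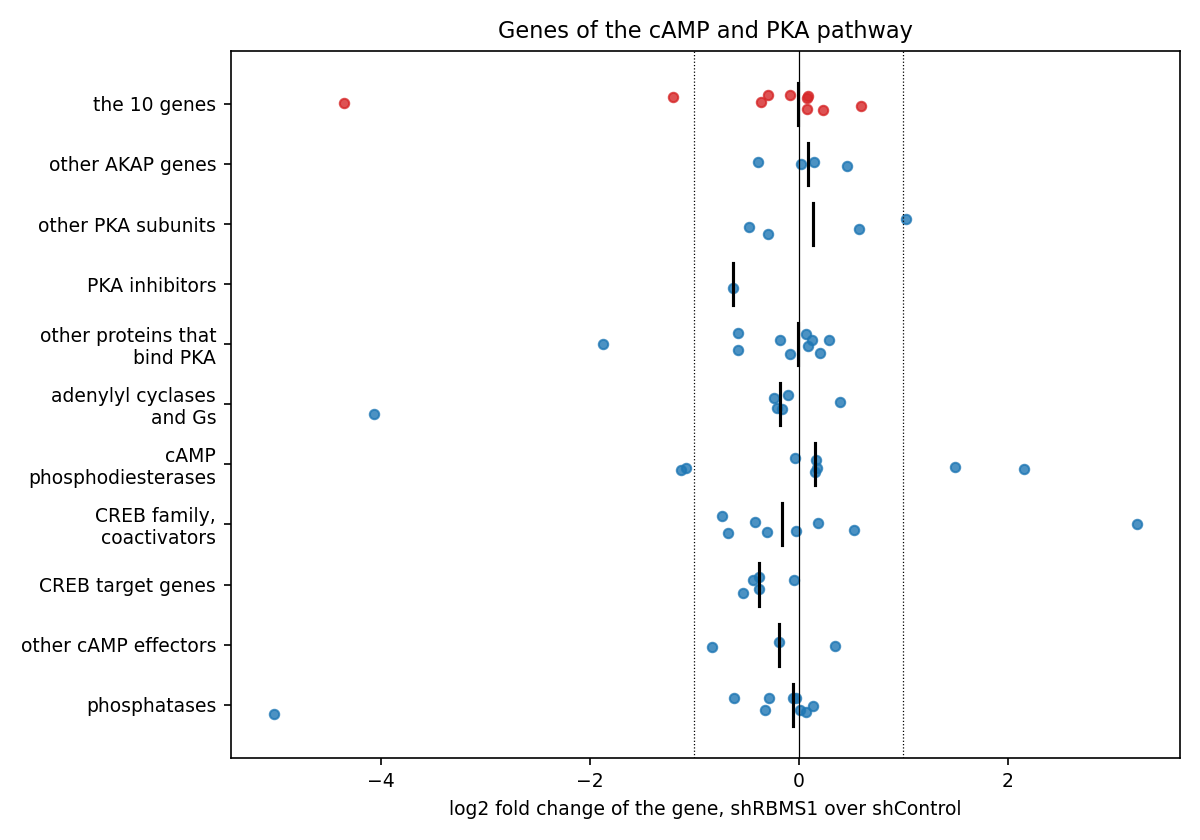
Log2 fold change of each measured gene (points) of the cAMP and PKA pathway except AKAP12, by role, with the median of each group (black bars). The 10 genes of the first row are red and the groups below blue. Points are shifted up or down at random so that they do not hide each other, and dotted lines mark −1 and 1. Group medians lie between −0.62 and 0.16. The points farthest from 0 are PPP3CA, AKAP13, ADCY7 and CRTC3.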

How the data were processed

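Total RNA from 3 SW480 libraries, 2 shControl and 1 shRBMS1, was compared by the authors. The log2 fold changes per RefSeq transcript are theirs, in 1 deposited table that holds no value per library. The tools STAR 2.5, Cufflinks and Cuffdiff and the build hg38 come from the submitters' processing notes, without roles or settings. No source used here gives a filter on low expression. The file header gives neither base nor direction. Base 2 was taken because 20 transcripts lay 1 away, within 1.5e-05, from a value found at least 3 times, against 4 and 5 for ln 2 and log10 of 2.

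A RefSeq gene table of GRCh38.p14 named 19818 of 20104 transcripts, and the other 286 were left out of gene values. Exons and 3′ UTRs came from GENCODE 29 through its RefSeq links. No test was run. The counting was tested on simulated data. The members and lists were chosen with earlier results of these data known. Named were all members, RBMS1, AKAP12, the highest and lowest gene of each other list, and genes past 1. PRKACB was added after its values were seen. Python 3.11.15, pandas 2.3.3 and numpy 2.4.6 were used. Alternatives were other ways to take 1 value per gene, coding transcripts alone, leaving out extreme transcripts, centring, other thresholds and other 3′ UTRs.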

Additional observations from a re-analysis of the deposited data

How the results depend on the processing

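Of the 2 genes past 1, PRKACA has 1 transcript, so only centring could move it, and it stayed between −1.22 and −1.21. AKAP13 turned its direction, to 0.045 with the least changed transcript and to 0.045 without transcripts at or beyond 5 in either direction. With its longest measured transcript AKAP13 was at −8.74, and AKAP9, at 0.59, moved to −0.026 with the least changed one. Genes lower by at least 1 then numbered 1 with the least changed transcript and 1 without extreme transcripts, in place of 2. With a threshold of 2, there was 1 lower gene, 1 lower transcript and 0 higher transcripts, and with 0.5 there was 1 higher gene. Without extreme transcripts 1 member transcript was lower by at least 1. Of the other pathway genes, 3 were lower with the least changed transcript, 13 with a threshold of 0.5 and 2 with a threshold of 2, in place of 5, and 2 were higher with a threshold of 2, in place of 4. The thresholds and the transcripts left out account for these counts by construction. Shares of all genes lower or higher at these other settings are not given here, so the counts have no background beside them. In both directions together, 67.2% of the 58 pathway genes lay within 0.5 of 0, beside 76.9% of all genes. The median of the members, −0.0030, changed sign under some alternatives and reached 0.062 without extreme transcripts. That of the pathway genes, −0.095, reached −0.25 with the longest measured transcript. Both moved by less than 1.5-fold, or 0.58 on the log2 scale, a wide limit beside quartiles of −0.25 and 0.23 over all genes. In the measured transcripts 7 genes held ATATA as well.

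Leaving out a replicate was not run, since the table holds 1 fold change per transcript. No paired analysis was possible because the groups share fewer than 2 replicate numbers and the table carries none. Depth is unknown, so what it limits could not be computed.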

Other observations

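AKAP13 is not the only gene with a transcript at −5 or below whose highest transcript lies near 0. Of the 4597 genes with several transcripts, 104 had their lowest transcript at −5 or below and their highest within 0.5 of 0. Of the 498 genes that were lower by at least 1, 240 had several transcripts, and 203 of those had a transcript above −0.5. PRKACA belongs with the other 258, which have 1 measured transcript each.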
